A study of Mus musculus with 24 samples.

Results

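Mammary tumours of MMTV-PyMT mice were ranked by how much collagen messenger RNA they held, and the collagen-rich tumours were compared with the collagen-poor ones across all genes. In MMTV-PyMT mice the mouse mammary tumour virus promoter drives the polyoma middle T oncogene in the mammary epithelium, so the tumour cells are epithelial. The fibroblasts, vessels, fat and immune cells around them belong to the same mouse. All 24 tumours of the series carry this transgene and were taken at a volume of 2000 mm3, frozen and homogenised whole. The labels name 12 as Nr0b2-/- (KO, the gene of the nuclear receptor SHP) and 12 as Nr0b2+/+ (WT), with no age, treatment or batch. Within each of these title groups the 4 libraries with the highest Col1a1 level were called stroma rich and the 4 with the lowest stroma poor, which gave 16 of the 24 libraries, 8 rich and 8 poor, and left 8 in the middle. The unit is CPM, the read count of a gene per 1000000 reads of the library. Library totals ran from 18789250 to 38022182 reads. The classes were chosen by Col1a1 alone, so its levels in the classes describe them and are not tested, and a difference in any other gene says that its level went with that of Col1a1. The labels do not say whether 2 tumours could come from 1 mouse, so p-values rest on the spread of these samples, which may be partly technical.

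Tumour stroma is the connective tissue between the tumour cells. Its fibroblasts secrete type I and type III procollagens, which are hydroxylated and folded in the endoplasmic reticulum, trimmed of their end peptides outside the cell, assembled into fibrils with small proteoglycans and glycoproteins, and cross-linked by lysyl oxidases. Type I collagen is a trimer of the products of Col1a1 and Col1a2, and type III of that of Col3a1. In the mammary gland this tissue lies within a fat pad, so adipocytes, vessels, macrophages and, at the body wall, skeletal muscle are its usual neighbours.

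The promoters of 3 genes are shown because 2 of them, Col1a2 and Col3a1, are the fibril genes nearest to the ranking gene in function, and the last, that of the fat hormone gene Adipoq, belongs to the other group of genes that differed most. They are RefSeq sequences of GRCm38.p6, from 250 bases before to 50 after the gene's start. Capitals mark CCAAT, the sequence bound by the factor NF-Y, and TATAAA, a core promoter element, on either strand (ATTGG and TTTATA on the other). The windows are chr6:4505368-4505667 for Col1a2, chr1:45311288-45311587 for Col3a1 and chr16:23146286-23146585 for Adipoq, all on the plus strand.
Col1a2: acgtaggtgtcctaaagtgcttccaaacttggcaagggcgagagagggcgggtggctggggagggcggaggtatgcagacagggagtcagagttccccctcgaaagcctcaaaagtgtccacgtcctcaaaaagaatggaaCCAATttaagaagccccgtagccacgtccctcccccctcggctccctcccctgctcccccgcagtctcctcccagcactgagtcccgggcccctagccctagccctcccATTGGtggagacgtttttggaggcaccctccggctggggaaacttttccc
Col3a1: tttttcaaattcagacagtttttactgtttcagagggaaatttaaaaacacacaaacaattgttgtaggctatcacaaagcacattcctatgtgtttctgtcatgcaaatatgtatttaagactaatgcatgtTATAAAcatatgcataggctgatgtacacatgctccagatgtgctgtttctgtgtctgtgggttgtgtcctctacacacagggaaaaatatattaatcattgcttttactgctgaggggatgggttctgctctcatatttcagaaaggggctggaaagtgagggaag
Adipoq: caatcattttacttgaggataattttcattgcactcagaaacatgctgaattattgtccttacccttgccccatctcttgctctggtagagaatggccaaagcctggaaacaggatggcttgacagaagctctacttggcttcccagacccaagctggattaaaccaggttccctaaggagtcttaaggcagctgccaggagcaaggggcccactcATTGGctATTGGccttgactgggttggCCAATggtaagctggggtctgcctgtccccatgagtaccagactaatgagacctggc
The Col1a2 window held 2 CCAAT matches, the Col3a1 window 1 TATAAA match and the Adipoq window 3 CCAAT matches. The Col3a1 match began 117 bases before the start, and those of Col1a2 109 bases before it and at it. Windows looked at but not shown held neither sequence for Col5a1, Sparc, Bgn, Fstl1 and the fat genes Plin1 and Lep. Those of Postn held 1 CCAAT and 1 TATAAA match. Among the promoters of genes called higher in rich tumours below, 34.4% of 488 held CCAAT and 11.1% held TATAAA. The shares were 37.1% and 7.91% among promoters of all tested genes, and 37.4% and 13.6% of all 32851 promoters of the same length. The table held promoters for 380 of the 530 called genes. A match is a stretch of letters and shows no binding.

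Col1a1, which encodes the alpha 1 chain of type I collagen, was at 744, 702, 691 and 561 CPM in the rich libraries labelled KO (KO 8, KO 3, KO 7 and KO 11). In the poor libraries labelled KO it was at 334, 230.2, 223 and 107 CPM (KO 9, KO 5, KO 6 and KO 12). Among the libraries labelled WT it was at 918, 544, 436 and 397 CPM in the rich ones (WT 15, WT 20, WT 14 and WT 18), against 226, 217, 193 and 173 CPM in the poor ones (WT 22, WT 19, WT 17 and WT 21). The cut passed between neighbours that lay close together in some places. Just inside and just outside the rich class were KO 11 at 561 and KO 4 at 471 CPM, and WT 18 at 397 and WT 16 at 350.5 CPM. Just inside and just outside the poor class were KO 9 at 334 and KO 10 at 359 CPM, and WT 22 at 226 and WT 13 at 231 CPM. Because ranks were taken within each title group, 3 middle libraries labelled KO lay above the lowest rich library labelled WT. Means were 624 ± 173 CPM in rich and 213 ± 63.8 CPM in poor libraries (SD, n = 8 each), with 357 ± 82.6 CPM in the middle ones.

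**Figure D1:**
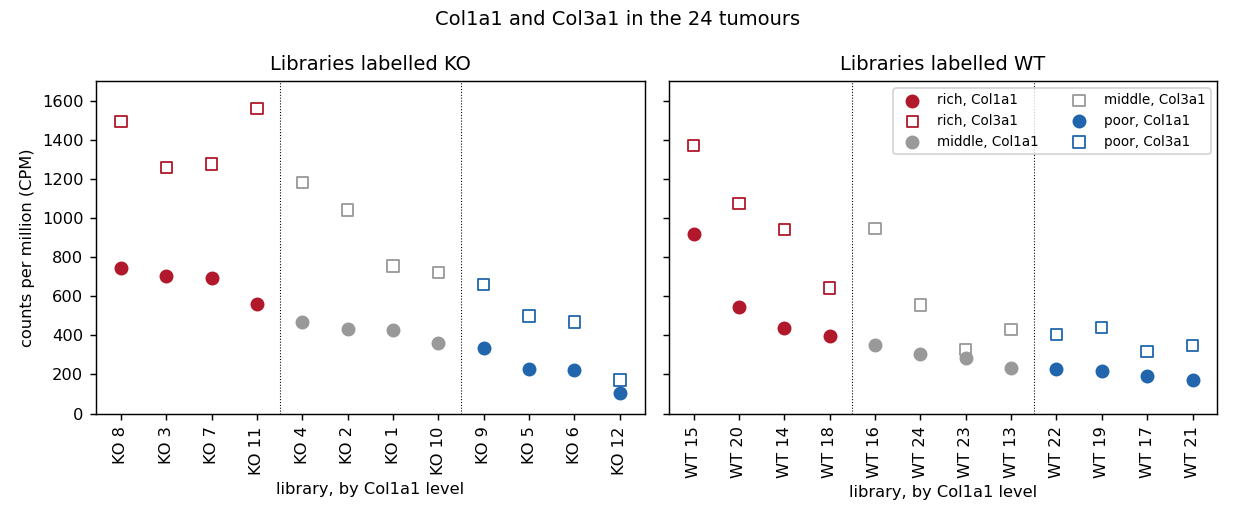
Col1a1 (filled circles) and Col3a1 (open squares) in CPM for each of the 24 libraries, ordered by Col1a1 within the libraries labelled KO (left) and WT (right), with dotted lines between the rich, middle and poor classes. Col3a1 lay between 642 and 1559 CPM in the 8 rich libraries and between 170.5 and 660.0 CPM in the 8 poor ones, so the classes overlapped only through WT 18 and KO 9.

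Col3a1 (chromosome 1, 45350698 to 45388866 of GRCm39, plus strand), the second marker of these classes, was not used in the ranking and followed it. It was at 1492, 1259, 1276 and 1559 CPM in rich KO 8, KO 3, KO 7 and KO 11, against 660.0, 498, 467 and 170.5 CPM in poor KO 9, KO 5, KO 6 and KO 12. In the libraries labelled WT it was at 1371, 1074, 942 and 642 CPM in rich WT 15, WT 20, WT 14 and WT 18, against 403, 439, 318 and 347 CPM in poor WT 22, WT 19, WT 17 and WT 21. The 2 classes met only where rich WT 18 lay just below poor KO 9. The log2 fold change, rich over poor with the title group as a term, was 1.47 ± 0.21 (SE; adjusted p = 0.00124 in edgeR's quasi-likelihood test). The label of stroma rich and poor held for this marker in that fit. The call was lost with the adipocyte level of each library in the fit, at 1.19 (adjusted p = 0.170, edgeR), and in either title group alone.

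A few libraries stood apart from their class in ways that touch the results. KO 12 had the lowest Col1a1 and Col3a1 of all 24, and KO 11 was rich in lymphocyte, fat and muscle transcripts. Fat transcripts were mostly higher in rich than in poor libraries. The 16 listed adipocyte genes summed to between 305 and 6512 CPM in rich libraries, highest in KO 11. In poor libraries the sum lay between 195 and 486 CPM. In bulk tissue, fewer cells of a type and less RNA per cell cannot be told apart. Nr0b2 reads went against the title labels, with 182 reads over the 12 libraries labelled KO and 1 over the 12 labelled WT. In the classes, Nr0b2 had 35 reads in the rich and 125 in the poor libraries labelled KO, and 0 in either class labelled WT. Poor KO 12 held most of these at 3.78 CPM, with poor KO 9, KO 5 and KO 6 at 0.258, 1.05 and 1.01 CPM. The title groups are therefore given as labelled, and the classes were balanced over them by construction.

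Most calls at the threshold were of genes higher in rich tumours. Of 15819 tested genes besides Col1a1, 551 passed an adjusted p of 0.05 (3.48%), 530 higher in rich tumours (3.35%) and 21 lower (0.133%). At an unadjusted p under 0.05 the 2 directions were closer, with 1618 genes higher (10.2%) and 1262 lower (7.98%), and DESeq2 called 879 higher and 149 lower. Of the 530, 518 were protein coding and 440 had a log2 fold change above 1. The lowest rich library lay above the highest poor one for 187 of the 530, and such a gap was found for 197 of all tested genes (1.25%). The 8 middle libraries took no part in the test. Their median lay between those of the classes for 473 of the 530 genes (89.2%) and for 45.8% of all tested genes. The 530 were picked for a gap between these classes, and a wide gap is more likely to hold any other median. Comparing these shares therefore cannot decide whether the middle libraries followed the ranking. The log2 fold change was positive in 45.2% of all tested genes, with a median of -0.03. A total of 118 members of the 37 gene lists described here passed, and each of these was higher in rich tumours. Counts of list members called, given below, are to be read beside the 3.35% of all tested genes called higher.

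The count depended on what entered the fit. With the mean adipocyte level of each library added as a term, an alternative chosen after seeing the data, 18 genes passed, all higher, and 17 of them were among the 551. These included Bgn, Spon1, Ccdc80, Fstl1, Sparc, Postn, Serpinf1, Adamts2, Prrx1 and Fst, which are the 10 of the 91 called genes named here that passed there. Many matrix genes lost the call with about the same fold change and a wider error. Col1a2 was at 1.40 ± 0.27 with the term and 1.44 ± 0.18 without it, and Col5a2 and Hspg2 at 1.36 and 1.39 with it and 1.15 and 1.28 without. The list median with the term was 1.12 for fibrillar collagens, 1.20 for other interstitial collagens and 1.02 for basement membrane genes, against 1.11, 1.22 and 0.81 without. Others were smaller with the term, such as Dcn (0.25), Lum (0.40) and the fibroblast list (median 0.56). So was Col3a1, the second marker, at 1.19 ± 0.29 (adjusted p = 0.170, edgeR) against 1.47 without the term. Without KO 11 and KO 12 the count was 393, and without WT 20, which moved it most, 343. With log2 Col1a1 as a continuous term over all 24 libraries, 711 genes passed as higher and 1687 as lower, so that fit called more lower than higher genes.

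The genes with the smallest p-values encode secreted matrix and matrix-binding proteins. Ccdc80 (chromosome 16, 44913770 to 44948287, plus strand), which encodes a secreted matrix-associated protein, ran from 51.2 to 106 CPM in rich libraries with a median of 67.6, against 15.9 to 28.0 CPM in poor ones with a median of 23.2. The 2 ranges were well apart, and Ccdc80 rose by 1.57 ± 0.14 on the log2 scale (SE; adjusted p = 5.17e-05, edgeR). Fstl1 (chromosome 16, 37597417 to 37656878, plus strand), a secreted glycoprotein of the follistatin-SPARC family, ran from 169 to 292 CPM in rich (median 252) and from 43.1 to 108 CPM in poor libraries (median 89.9), and rose by 1.44 ± 0.14. Bgn (chromosome X, 72527207 to 72539542, plus strand), the small proteoglycan biglycan that binds type I collagen, ran from 275 to 471 CPM in rich (median 366) and from 85.4 to 173 CPM in poor libraries, and rose by 1.33 ± 0.13. Spon1, which encodes the matrix protein F-spondin, averaged 42.9 ± 6.22 CPM in rich and 16.4 ± 3.91 CPM in poor libraries (SD, n = 8 each). These 4 genes had no overlap between the classes, and the call held for all 4 with the adipocyte term. Middle WT 13, whose Col1a1 lay just above the poor libraries labelled WT, was at 68.1 CPM for Ccdc80 and 201 CPM for Fstl1. That library was at 262 CPM for Bgn and at 71.0 CPM for Spon1, the latter above every rich library.

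Fibril-forming collagens rose together, but not every member. Of 10 tested fibrillar collagens besides Col1a1, 5 passed as higher and none as lower, with a median log2 fold change of 1.11. Col1a2 (chromosome 6, 4505618 to 4541543, plus strand), the partner chain of Col1a1, ran from 424 to 964 CPM in rich libraries (median 732), against 127 to 378 CPM in poor ones (median 243). Its classes did not overlap and it rose by 1.44 ± 0.18 (adjusted p = 0.000744, edgeR). Col5a1, Col5a2 and Col5a3 encode chains of type V collagen, which is built into type I fibrils and limits their width. They averaged 112, 203 and 29.0 CPM in rich and 38.7, 87.8 and 10.9 CPM in poor libraries and rose by 1.47 ± 0.22, 1.15 ± 0.20 and 1.34 ± 0.23. Col11a1, a minor fibrillar collagen of cartilage that tumours can also express, did not pass and had a value of the other sign: 308 ± 97.0 CPM in rich and 449 ± 326 CPM in poor libraries (log2 fold change -0.62 ± 0.41).

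Among 11 other interstitial collagens tested, 5 passed, with a median of 1.22 and 11 of 11 positive values, against 45.2% of all tested genes. Col6a1, Col6a2 and Col6a3 encode the chains of type VI collagen, a beaded microfibril around cells. They averaged 124 ± 24.5, 114 ± 23.8 and 119.9 ± 38.9 CPM in rich libraries and 48.3 ± 12.6, 44.3 ± 12.1 and 47.2 ± 14.3 CPM in poor ones (SD, n = 8 each). The classes did not overlap for any of these chains, and the log2 fold changes were 1.30, 1.30 and 1.28. Col14a1, which encodes a fibril-associated collagen, averaged 83.3 ± 20.2 CPM in rich and 29.6 ± 9.82 CPM in poor libraries and rose by 1.43 ± 0.22. In poor KO 12, Col6a1 was at 22.3 CPM and Col14a1 at 8.83 CPM, below the other 7 poor libraries.

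Of 12 genes that process and cross-link collagen outside the cell, 5 passed as higher, with a median of 0.91. Adamts2, the protease that removes the amino-terminal propeptide, ran from 29.0 to 54.2 CPM in rich and from 10.6 to 23.1 CPM in poor libraries and rose by 1.31 ± 0.15. Lox, the lysyl oxidase that starts cross-linking, averaged 77.5 ± 23.9 CPM in rich and 26.1 ± 7.0 CPM in poor libraries and rose by 1.51 ± 0.20. Its relative Loxl1, which acts on elastic fibres, rose by 1.32 ± 0.17, and Pcolce, the enhancer of carboxy-terminal propeptide removal, by 1.30 ± 0.17. The classes did not overlap for these 4 genes.

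Of 21 genes that hydroxylate and fold collagen inside the cell, 2 passed, where 3.35% of all tested genes were called higher. The median was 0.15. P3h3, a prolyl 3-hydroxylase family member, averaged 15.6 ± 2.56 CPM in rich and 8.02 ± 2.12 CPM in poor libraries and rose by 0.91 ± 0.15. Fkbp10, a prolyl isomerase and collagen chaperone, averaged 19.7 ± 3.09 CPM in rich and 9.94 ± 2.79 CPM in poor libraries and rose by 0.92 ± 0.17. Serpinh1, the collagen chaperone HSP47, did not pass, at 309 ± 109 CPM in rich and 195 ± 64.2 CPM in poor libraries (log2 fold change 0.58 ± 0.19, adjusted p = 0.105, edgeR). P4hb and Ppib, which serve many secreted proteins besides collagen, had values of -0.39 ± 0.13 and -0.37 ± 0.12 and did not pass either. The difference between these lists was not tested.

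Small leucine-rich and other proteoglycans had 9 of 12 members called, with a median of 1.51. Besides Bgn these included Podn (1.88 ± 0.25), Ogn (1.75 ± 0.29) and Prelp (1.55 ± 0.25), whose classes did not overlap, and Lum (1.41 ± 0.29), which encodes lumican. Dcn, which encodes decorin, a proteoglycan that coats collagen fibrils, ran from 85.6 to 568 CPM in rich libraries (median 202) and from 59.7 to 162 CPM in poor ones (median 90.01). Its classes overlapped, and it rose by 1.26 ± 0.31 (adjusted p = 0.0353, edgeR), a call that was lost without KO 11 and KO 12 (0.99, adjusted p = 0.119).

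Of 40 matrix glycoproteins and elastic fibre genes tested, 18 passed as higher, with a median of 1.07. Sparc (chromosome 11, 55284985 to 55310906, minus strand), a collagen-binding glycoprotein, ran from 626 to 1341 CPM in rich (median 896) and from 282 to 424 CPM in poor libraries (median 347), and rose by 1.36 ± 0.14. Postn (chromosome 3, 54266688 to 54298462, plus strand), which encodes periostin, a protein of remodelled and tumour stroma, ran from 484 to 939.7 CPM in rich (median 702) and from 201 to 360.1 CPM in poor libraries (median 279), and rose by 1.32 ± 0.15. In both genes every rich library lay above every poor one. Middle WT 13 was at 1708 CPM for Sparc, above every rich library, and at 275 CPM for Postn, within the poor range. Fn1, fibronectin, averaged 398 ± 148 CPM in rich and 183 ± 51.3 CPM in poor libraries and rose by 1.07 ± 0.23, with overlap and, without KO 11 and KO 12, a value of 0.95 with an adjusted p of 0.0515. Microfibril genes were also called, among them Mfap4 (1.63 ± 0.24), Mfap5 (1.38 ± 0.21), Fbn1 (1.23 ± 0.22) and Fbn2 (1.44 ± 0.28). Thbs1 and Tgfbi, both matricellular proteins, did not pass (-0.12 ± 0.24 and 0.14 ± 0.18).

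Basement membrane genes had 6 of 23 members called and a median of 0.81. When libraries were ranked on Col3a1 in place of Col1a1, 5 passed and the median was 0.17. Nid1, the linker protein nidogen 1, averaged 124 ± 44.9 CPM in rich and 39.97 ± 11.5 CPM in poor libraries and rose by 1.58 ± 0.23, and Hspg2, perlecan, averaged 147 ± 65.5 CPM in rich and 58.2 ± 13.2 CPM in poor libraries and rose by 1.28 ± 0.22. Col15a1 (1.08 ± 0.17) and the laminin chain gene Lama2 (1.48 ± 0.27) also rose without overlap. Col4a2, a chain of the network-forming type IV collagen, passed (1.36 ± 0.36, adjusted p = 0.0468, edgeR), while its partner Col4a1, at 582 CPM in rich and 201 CPM in poor libraries, just missed the threshold (1.37 ± 0.37, adjusted p = 0.0516).

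**Figure D2:**
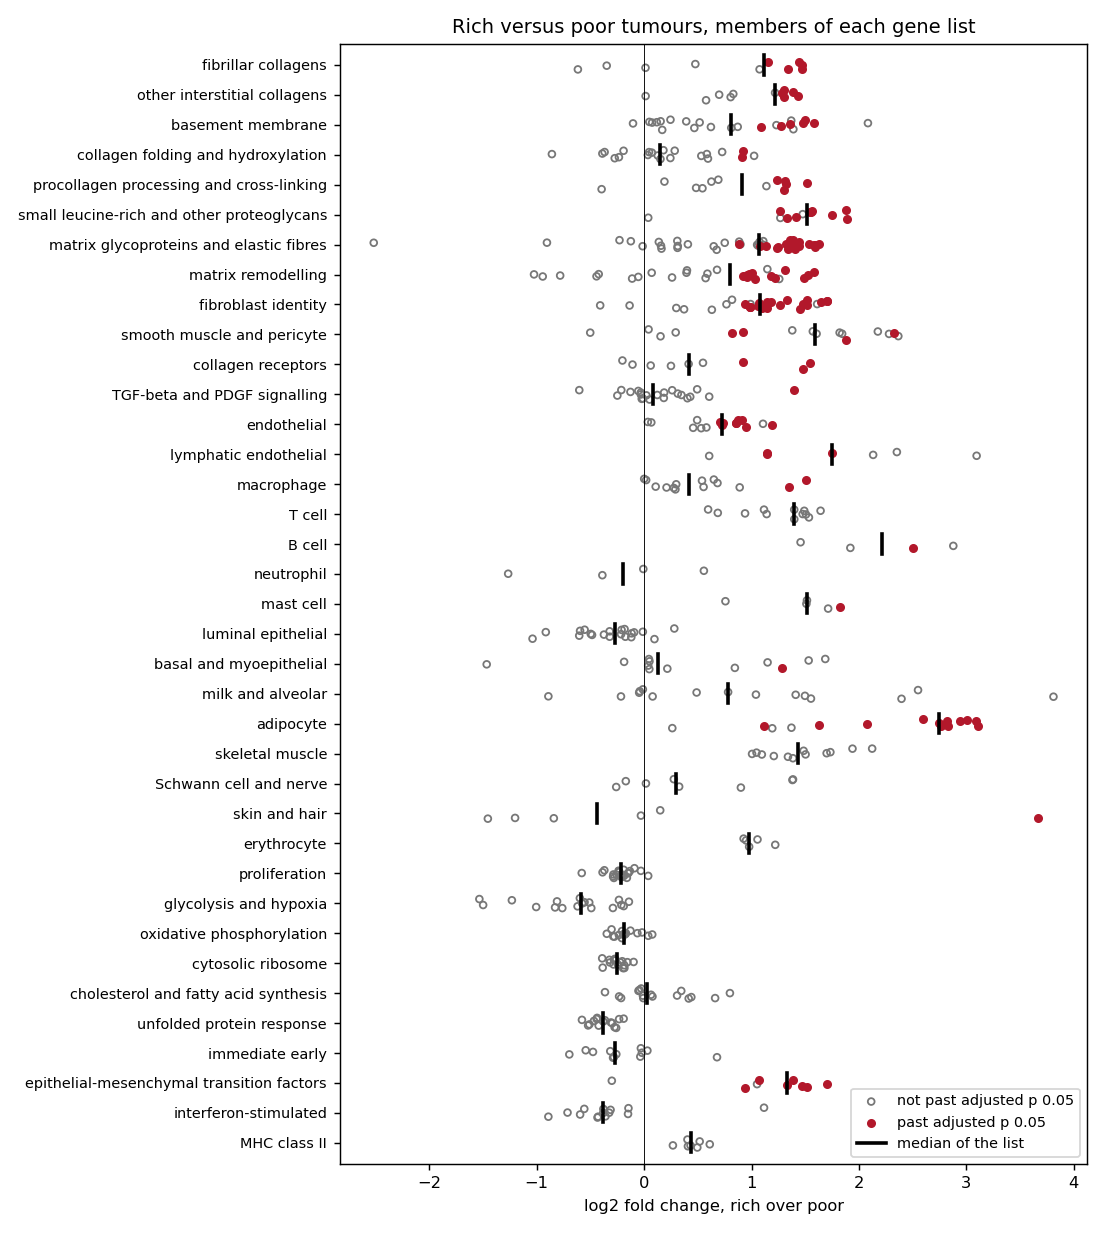
Log2 fold change, rich over poor (x axis), for each tested member of the 37 gene lists (rows), filled where the adjusted p in edgeR was under 0.05, with a black bar at the list's median. Matrix, fibroblast and adipocyte lists lie to the right, with medians of 1.08 for fibroblast identity and 2.75 for adipocyte genes, and no filled point lies left of 0.

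Genes that define fibroblasts rose with the collagens, 19 of 28 tested, with a median of 1.08. The classes did not overlap for 12 members, where 1.25% of all tested genes were higher without overlap. Prrx1, a mesenchymal transcription factor, averaged 25.0 ± 9.30 CPM in rich and 7.33 ± 1.91 CPM in poor libraries and rose by 1.70 ± 0.21. Pdgfra, the receptor that marks most tissue fibroblasts, ran from 25.9 to 52.1 CPM in rich (median 36.4) and from 5.69 to 25.5 CPM in poor libraries (median 19.4), so that the classes only just missed each other, and rose by 0.99 ± 0.22. Pdgfrb, shared by fibroblasts and pericytes, averaged 25.0 ± 6.23 CPM in rich and 11.5 ± 2.41 CPM in poor libraries and rose by 1.06 ± 0.16. Islr (1.70 ± 0.23), Igf1 (1.45 ± 0.20), Thy1 (1.10 ± 0.19) and Fap (1.18 ± 0.22), the last a protease of activated fibroblasts, rose too. Fap and Igf1 overlapped between the classes.

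The list of transcription factors and markers of epithelial-mesenchymal transition, most of which fibroblasts also express, had 7 of 9 members called and a median of 1.33. Twist1 averaged 5.09 ± 1.78 CPM in rich and 1.67 ± 0.353 CPM in poor libraries and rose by 1.51 ± 0.20, Zeb1 averaged 17.8 ± 7.40 CPM in rich and 6.19 ± 1.56 CPM in poor libraries and rose by 1.47 ± 0.23, and Zeb2 rose by 1.07 ± 0.22. Their levels went with fibroblast genes in the same libraries, and which cells held them was not tested. Snai1 did not pass (-0.30 ± 0.38). Prrx1, Twist1, Twist2 and Vim stand in both this list and that of fibroblasts.

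Matrix remodelling genes had 12 of 28 members called, with a median of 0.80. Mmp2, the gelatinase that fibroblasts secrete, ran from 80.1 to 166 CPM in rich (median 118) and from 30.5 to 64.2 CPM in poor libraries (median 42.0) and rose by 1.31 ± 0.18. Serpinf1, which encodes PEDF, rose by 1.52 ± 0.21 and the stromelysin gene Mmp3 by 1.49 ± 0.26. Middle WT 13 was at 259 CPM for Mmp2 and 196 CPM for Serpinf1, above every rich library. For Mmp3 it was at 10.8 CPM, within the poor range. Mmp14, the membrane-bound activator of MMP2, did not pass and overlapped widely, at 230.1 ± 88.9 CPM in rich and 208 ± 111 CPM in poor libraries (0.07 ± 0.33, with a negative value in several alternatives). Timp1, a metalloproteinase inhibitor, did not pass either (0.39 ± 0.23).

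Of 9 collagen receptors, 3 passed: Ddr2, the fibrillar collagen receptor kinase of mesenchymal cells (1.48 ± 0.33), Itga11, the collagen-binding integrin chain of fibroblasts (1.54 ± 0.31), and Mrc2, which takes up collagen for degradation (0.92 ± 0.17). Ddr1, the epithelial relative of Ddr2, had 229 CPM in rich and 238 CPM in poor libraries (-0.11 ± 0.11). Among 22 genes of transforming growth factor beta and platelet-derived growth factor signalling only Fst, an antagonist of activins, passed (1.39 ± 0.24), and the median was 0.09. Over all tested genes 3.35% were called higher. Of the ligands, Tgfb1 averaged 46.5 ± 6.61 CPM in rich and 43.3 ± 10.6 CPM in poor libraries (0.05 ± 0.13). Tgfb3 averaged 366 ± 61.2 CPM in rich and 276 ± 62.5 CPM in poor libraries (0.35 ± 0.12, adjusted p = 0.155, edgeR). A miss does not show that these ligands were equal.

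**Figure D3:**
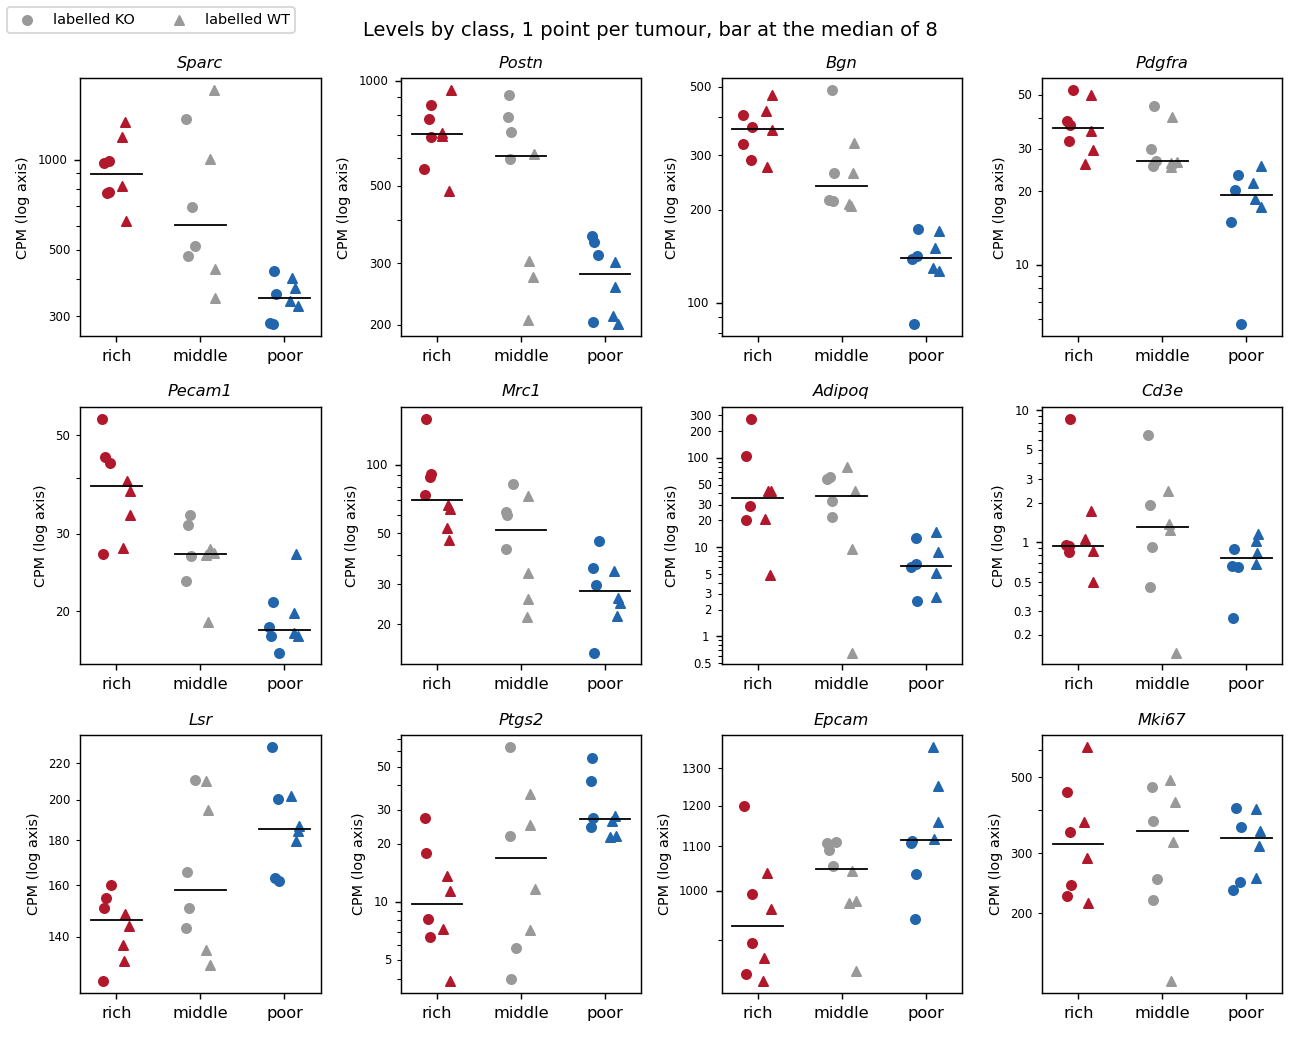
CPM on log axes for 12 genes in rich, middle and poor libraries (1 point per tumour, circles labelled KO, triangles labelled WT, bar at the median of 8). Sparc, Postn, Bgn, Pdgfra and Mrc1 do not overlap between rich and poor libraries, Adipoq runs up to 275 CPM in rich KO 11, Lsr lies lower in rich libraries, and Mki67 overlaps throughout.

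Vessel genes were higher in rich tumours: 9 of 16 endothelial genes passed, with a median of 0.73 and 16 of 16 positive values, against 45.2% of all tested genes. When libraries were ranked on Col3a1, 4 of 16 passed and the median was 0.58. Pecam1, the endothelial adhesion molecule CD31, ran from 27.0 to 54.6 CPM in rich (median 38.4) and from 16.1 to 27.0 CPM in poor libraries (median 18.2), the classes touching at 27.0 CPM, and rose by 0.91 ± 0.15. The angiopoietin receptor gene Tek rose by 1.19 ± 0.18, Cdh5, VE-cadherin, by 0.94 ± 0.16 and Tie1 by 0.86 ± 0.15. Among 7 lymphatic genes, Pdpn, Flt4 and Lyve1 passed (1.14 ± 0.25, 1.14 ± 0.25 and 1.75 ± 0.41). Pdpn is also a fibroblast marker and Lyve1 also marks some macrophages, and Prox1, the factor that defines lymphatic endothelium, did not pass (0.61 ± 0.41). Without KO 11 and KO 12 Flt4 was at 0.99 and missed the threshold.

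Smooth muscle and pericyte genes had 4 of 16 members called with a median of 1.59. Acta2, smooth muscle actin of myofibroblasts, myoepithelium and vessel walls, averaged 455 ± 505 CPM in rich and 101 ± 41.5 CPM in poor libraries and rose by 1.88 ± 0.47 (adjusted p = 0.0377, edgeR). Rich WT 18 at 1603 CPM and WT 20 at 771 CPM carried most of that mean, the other 6 rich libraries lay between 148 and 280.2 CPM, and poor libraries between 30.0 and 154 CPM. Rgs5 and Cspg4, pericyte genes, rose by 0.82 ± 0.20 and 0.92 ± 0.23, and Synpo2, an actin-binding protein of muscle, rose by 2.33 ± 0.49. Without KO 11 and KO 12, Acta2 was at 1.96 (adjusted p = 0.084), Rgs5 at 0.77, Cspg4 at 0.75 and Synpo2 at 1.82, so the fold changes of Acta2 and Rgs5 stayed about as large although none of the 4 passed. Basal and myoepithelial genes had 1 of 12 called, where 3.35% of all tested genes were called higher. Trp63, the p63 factor of basal cells, rose by 1.28 ± 0.24, at 54.7 ± 22.8 CPM in rich and 21.4 ± 6.49 CPM in poor libraries.

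Of 14 macrophage genes tested, 14 had positive values, against 45.2% of all tested genes. Of these 2 passed, where 3.35% of all tested genes were called higher. At an unadjusted p under 0.05, 7 of the 14 were higher, against 10.2% of all tested genes. Mrc1, the mannose receptor CD206, ran from 46.8 to 159 CPM in rich (median 70.2) and from 15.01 to 46.4 CPM in poor libraries (median 27.9) and rose by 1.35 ± 0.20, and the scavenger receptor gene Cd163 rose by 1.50 ± 0.23. Both mark resident, tissue-remodelling macrophages, and they were the 2 that passed, while DESeq2 called 5 and ranking on Col3a1 in place of Col1a1 gave 6. The general markers Adgre1 (0.65 ± 0.19, adjusted p = 0.0791, edgeR), Csf1r (0.55 ± 0.17) and Cd68 (0.00 ± 0.22) did not, and the list's median was 0.42, against 0.02 with the adipocyte term. Ptprc, the pan-leukocyte CD45 gene, did not pass (0.88 ± 0.28, adjusted p = 0.109).

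T cell genes gave no call in 12 tested, with 6 at an unadjusted p under 0.05, where 10.2% of all tested genes were higher, and a list median of 1.40, and 1 library held most of the signal. The 13 listed genes, of which Cd5 was not tested, summed to 165 CPM in rich KO 11, against 9.47 to 23.5 CPM in the other 7 rich libraries and 11.3 to 17.6 CPM in the 8 poor ones. Cd3e was at 8.64 CPM in KO 11, and without KO 11 and KO 12 its log2 fold change was 0.19, against 1.12 ± 0.55 with them. Of B cell genes Jchain, the joining chain of secreted antibodies, passed (2.50 ± 0.65), and of mast cell genes Tpsb2, a tryptase (1.83 ± 0.45). Both were highest in rich KO 11, Jchain at 73.0 CPM and Tpsb2 at 24.1 CPM. The Jchain call was lost without KO 11 and KO 12 (1.65, adjusted p = 0.171, edgeR). All 5 tested mast cell genes were higher at an unadjusted p under 0.05, and 4 passed when libraries were ranked on Col3a1.

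**Figure D4:**
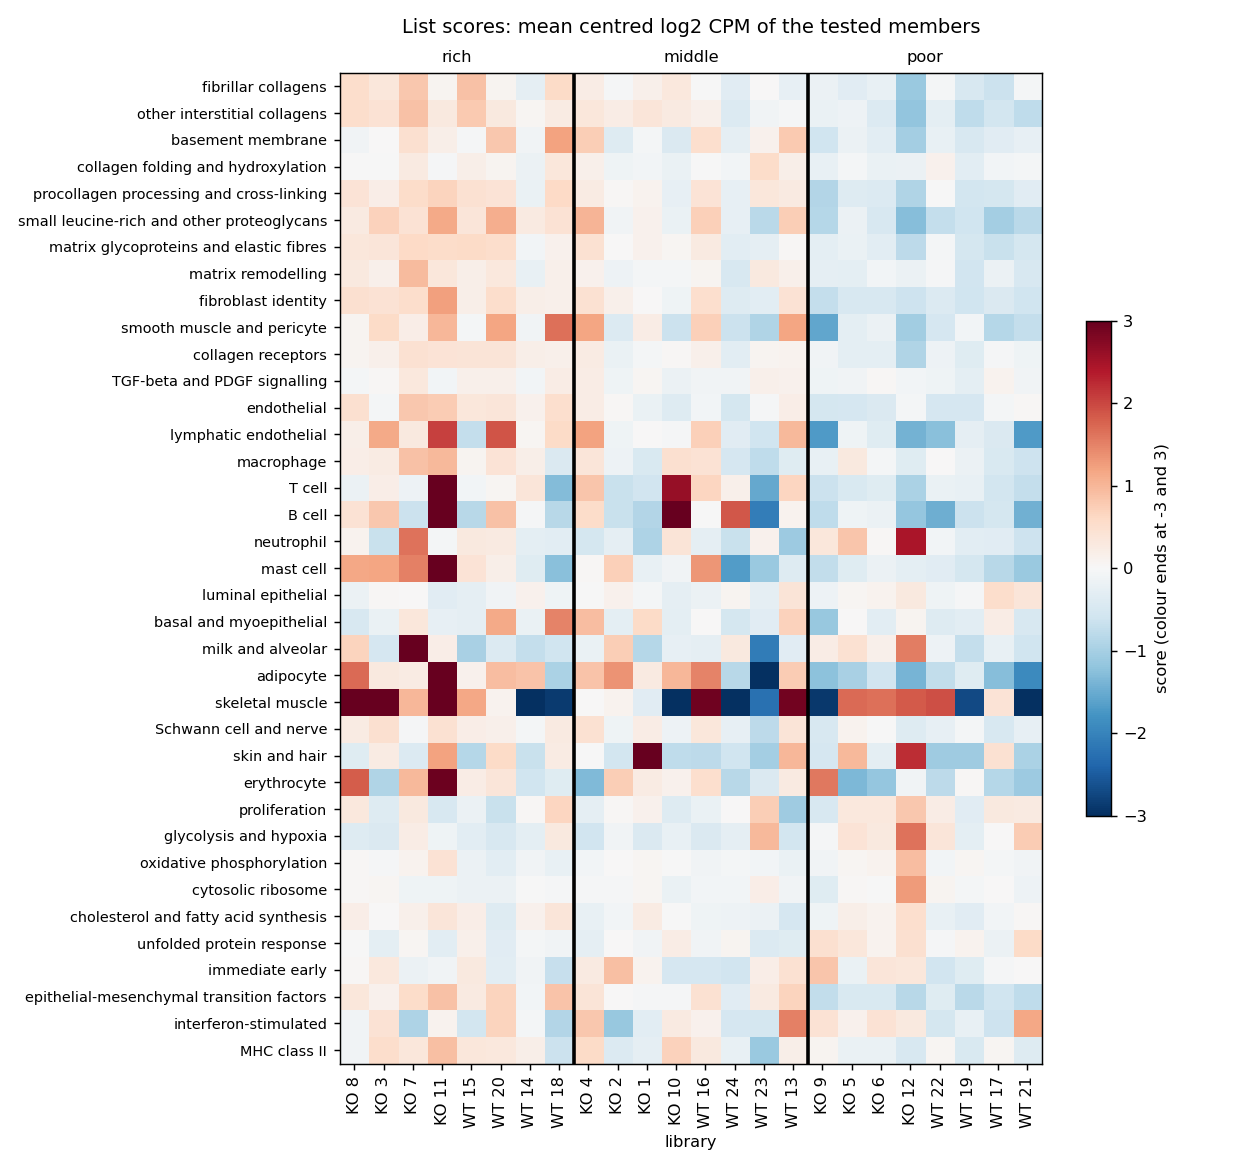
Score of each gene list (rows; the mean over tested members of log2 CPM centred on the 24 libraries) in each library (columns), in rich, middle and poor classes with libraries labelled KO before those labelled WT; red is above and blue below the mean of 0. KO 11 is high in the adipocyte (3.50), T cell (3.14), B cell (4.48) and skeletal muscle (6.22) rows, and KO 12 is low in the collagen rows and high in glycolysis and hypoxia (1.64).

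Adipocyte genes showed the widest differences. Of 15 tested, 12 passed as higher, with a median of 2.75. The list score had medians of 0.57 in rich, 0.81 in middle and -1.10 in poor libraries. Its median was thus no lower in middle than in rich libraries. Adipoq (chromosome 16, 22965286 to 22976718, plus strand), the gene of the fat hormone adiponectin whose promoter is printed above, was at 106, 29.3, 20.2 and 275 CPM in rich KO 8, KO 3, KO 7 and KO 11, against 5.94, 6.48, 12.7 and 2.50 CPM in poor KO 9, KO 5, KO 6 and KO 12. In the libraries labelled WT it was at 20.6, 42.1, 42.5 and 4.84 CPM in rich WT 15, WT 20, WT 14 and WT 18, against 8.85, 14.8, 5.20 and 2.78 CPM in poor WT 22, WT 19, WT 17 and WT 21. Rich WT 18 was within the poor range and the other 7 rich libraries were above it. The log2 fold change was 2.82 ± 0.65 (adjusted p = 0.0234, edgeR). Plin4 and Lep, a lipid droplet coat gene and leptin, rose by 2.60 ± 0.41 and 3.09 ± 0.59 without overlap, and Cidec, a lipid droplet fusion gene, and Plin1 rose by 3.11 ± 0.62 and 3.01 ± 0.70. Among the adipocyte genes named here, 0 kept the call in the fit with the adipocyte term, whose score is made of these genes. The part of fat content in the other differences was not tested beyond that fit.

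The 10 largest rises at a mean of at least 5 CPM were those of Cidec, Lep, Plin1, Retn and Car3, which stand in the adipocyte list, and of Krt71, Cyp2e1, Slc36a2, Pck1 and Enpp2, which do not, with log2 fold changes from 3.67 to 2.83. Car3, carbonic anhydrase 3 of fat and muscle, was at 1651 CPM in rich KO 11 and between 34.2 and 505 CPM in the other 7, against 12.04 to 74.3 CPM in poor libraries. Pck1 and Retn encode the glyceroneogenic carboxykinase and resistin of fat. Krt71, a hair follicle keratin, was at 60.4 CPM in KO 11 and 22.7 CPM in WT 18 and between 0.812 and 2.26 CPM in the other 6 rich libraries, against up to 3.25 CPM in poor ones. The calls of Krt71, Cyp2e1, Slc36a2, Pck1 and Retn were lost without KO 11 and KO 12 (2.77, 2.76, 2.43, 2.52 and 2.33, adjusted p from 0.0656 to 0.126), and with the adipocyte term Cyp2e1, Slc36a2, Pck1 and Retn had values below 0. Of 12 skeletal muscle genes tested 0 passed, with 1 at an unadjusted p under 0.05, where 10.2% of all tested genes were higher. The 15 listed muscle genes summed to between 4.87 and 7642 CPM in rich libraries, highest in KO 11, and to between 2.96 and 423 CPM in poor ones.

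Luminal genes, which mark the cells that the transgene transforms, held no call. Of 20 luminal epithelial genes 0 passed, while 18 had values below 0, 10 of them at an unadjusted p under 0.05, against 7.98% of all tested genes, and the median was -0.27. Epcam, the epithelial adhesion molecule, ran from 825 to 1200.3 CPM in rich (median 928) and from 941 to 1360.3 CPM in poor libraries (median 1115), with wide overlap (-0.32 ± 0.10, adjusted p = 0.0819, edgeR). Krt8 and Krt18, the keratins of luminal cells, had values of -0.49 ± 0.20 and -0.55 ± 0.23, and Cdh1, E-cadherin, -0.21 ± 0.10. Glycolysis and hypoxia genes likewise had 0 of 18 called, with 18 of 18 values below 0, 11 at an unadjusted p under 0.05 and a median of -0.59. The count for this list depended on the fit, with 4 of 18 called lower by DESeq2 and 7 when libraries were ranked on Col3a1, and its median was -0.20 with the adipocyte term. DESeq2 also called 2 of the 20 luminal genes lower. Vegfa averaged 57.1 CPM in rich and 126 CPM in poor libraries (-1.23 ± 0.38, adjusted p = 0.0904). KO 12 had the highest glycolysis score of the poor libraries.

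The 21 genes lower in rich tumours belonged to no list. Kdm3a (chromosome 6, 71565954 to 71609963, minus strand), a histone H3 lysine 9 demethylase gene induced by low oxygen, ran from 63.9 to 81.4 CPM in rich (median 79.0) and from 86.5 to 111 CPM in poor libraries (median 99.5). Lsr (chromosome 7, 30657195 to 30672894, minus strand), a protein of tricellular epithelial junctions, ran from 125 to 159.97 CPM in rich (median 146) and from 162 to 229 CPM in poor libraries (median 185). These were the 2 tested genes whose rich libraries all lay below all poor ones (0.0126% of tested genes), and they changed by -0.43 ± 0.08 and -0.46 ± 0.10. Llgl2, a polarity gene of epithelia, changed by -0.49 ± 0.11 and Pkp2, a desmosome gene, by -0.41 ± 0.10. Further small changes were those of Narf (-0.42 ± 0.10), Hax1 (-0.42 ± 0.10), Lamtor5 (-0.34 ± 0.09) and the amino acid transporter gene Slc38a1 (-0.50 ± 0.13). Ptgs2, the inducible prostaglandin synthase COX-2, averaged 11.97 ± 7.57 CPM in rich and 30.9 ± 11.9 CPM in poor libraries and changed by -1.42 ± 0.31, the classes overlapping.

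Some larger falls were uneven over the poor libraries. Npy, neuropeptide Y, changed by -2.16 ± 0.40: it was at 30.8, 38.1 and 38.8 CPM in poor KO 9, KO 5 and KO 12, and between 2.65 and 5.01 CPM in the other 5 poor libraries, against 0.767 to 9.05 CPM in rich ones. Kif26a (-2.20 ± 0.53) and the circadian and cytokine-induced factor gene Nfil3 (-1.58 ± 0.42) reached 62.5 and 69.9 CPM in their highest poor library, against 12.2 and 18.4 CPM in their highest rich one. The predicted genes Gm4847, Gm6958 and D6Ertd527e changed by -5.51 ± 1.07, -2.75 ± 0.67 and -1.14 ± 0.24. Gm4847 ran from 0 to 0.845 CPM in rich and from 0.689 to 28.3 CPM in poor libraries, and D6Ertd527e from 0.413 to 1.01 CPM in rich and from 0.900 to 2.24 CPM in poor ones. The calls of Kif26a, Gm6958, Nfil3, Hax1, Llgl2, Pkp2 and Lamtor5 were lost without KO 11 and KO 12, though Kif26a, Gm6958 and Nfil3 were still at -2.22, -2.68 and -1.53. None of the 21 passed with the adipocyte term, and there too several fold changes hardly moved: Gm4847 was at -5.59, Kif26a at -2.26, Nfil3 at -1.53, Narf at -0.44 and Slc38a1 at -0.49. Those of Lsr (-0.26), Kdm3a (-0.27) and Ptgs2 (-0.997) were smaller with the term.

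Each title group was also compared alone, 4 rich against 4 poor. In edgeR 0 genes passed in the libraries labelled KO and 0 in the WT ones (0% each), while DESeq2 called 687 and 481 and limma voom 175 and 0. At an unadjusted p under 0.05, 1518 genes were higher in rich KO-labelled libraries (9.6%) and 1013 in rich WT-labelled ones (6.4%). The 2 lists shared 555 genes (3.51% of tested genes), which is 36.6% of the KO list and 54.8% of the WT list. For genes lower in rich libraries they held 395 and 665 and shared 28, or 7.09% and 4.21%. Across all tested genes, which are not independent replicates, the log2 fold changes of the 2 title groups had a Pearson r of 0.379 and a Spearman rho of 0.386.

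The values of the title groups lay close together for some matrix genes and apart for others. Col1a2 had log2 fold changes of 1.46 among KO-labelled and 1.44 among WT-labelled libraries, Sparc 1.30 and 1.45, Bgn 1.30 and 1.38, and Postn 1.14 and 1.52. Mfap4 had 1.25 and 2.04, Lox 1.75 and 1.30, Loxl1 1.60 and 1.08, and Adamts2 1.54 and 1.10. The list that processes and cross-links collagen had medians of 1.09 among KO-labelled and 0.62 among WT-labelled libraries. The adipocyte list had medians of 3.76 among KO-labelled and 1.78 among WT-labelled libraries, and the T cell list 2.34 and 0.26. The difference itself, tested as the interaction of class and title group, gave 0 calls in edgeR, DESeq2 and limma voom, with 711 genes at an unadjusted p under 0.05 (4.49%). For Cd3e the unadjusted interaction p was 0.058 and for Adipoq 0.0769, so neither difference was shown.

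**Figure D5:**
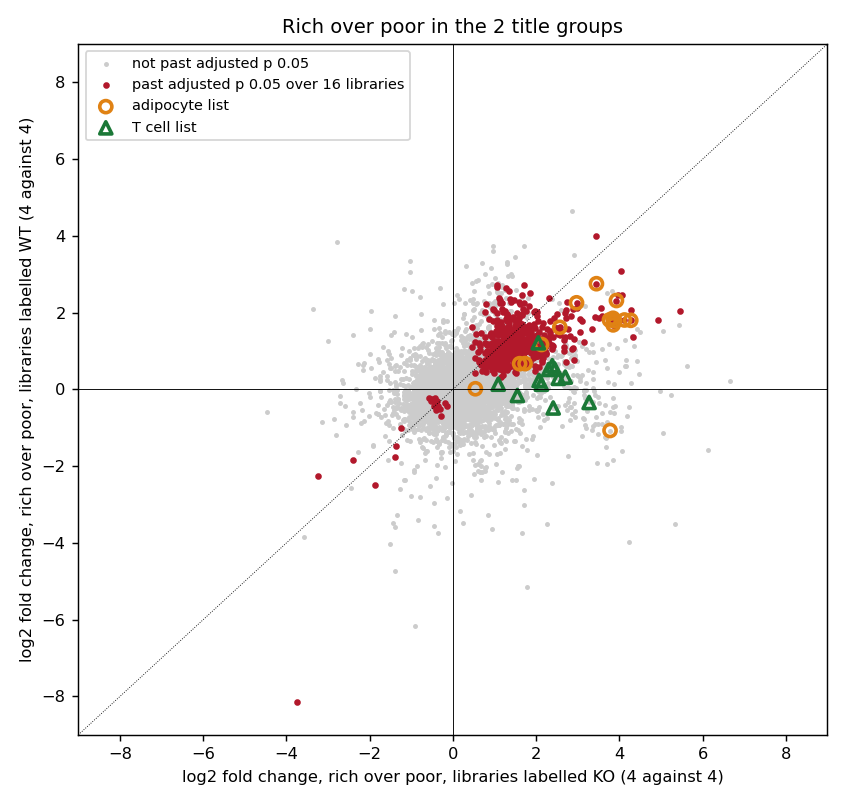
Log2 fold change, rich over poor, in the libraries labelled KO (x axis, 4 against 4) and WT (y axis, 4 against 4) for 15819 genes; red points passed over all 16 libraries, orange circles are adipocyte and green triangles T cell genes, and the dotted line marks equal values. Red points lie mostly in the upper right, most adipocyte genes lie right of the line, and T cell genes lie near 0 on the y axis, with a median of 0.26.

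The classes were ranked within title groups, so the Col1a1 difference between the title groups over all 24 libraries was not used to form them. No difference was detected. Col1a1 averaged 440.1 ± 204 CPM in the libraries labelled KO and 356 ± 209 CPM in those labelled WT (SD, n = 12 each), a log2 difference of 0.30 (two-sided permutation test, 100000 resamples, p = 0.348). Leaving out single libraries gave differences from 0.21 to 0.47 and p from 0.104, without KO 12, to 0.507. The range among tumours of 1 label, from 107 to 744 CPM in those labelled KO and from 173 to 918 CPM in those labelled WT, was wide beside the difference between the labels.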

How the data were processed

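Gene expression was measured by RNA sequencing of 24 frozen mammary tumours, with a stranded mRNA library kit per the labels' protocols. The deposited files give read counts per gene in whole numbers. The authors made them with featureCounts 2.0.0 over exons grouped by gene ID on a RefSeq annotation of GRCm39, per the file headers. The headers record no option for strand or for multi-mapping reads, so the counts of overlapping and antisense genes and of near-identical copies are uncertain. STAR and Subread are named in the submitters' processing notes, with versions not given in the sources used here. The authors' deposited table of KO against WT was not used.

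A RefSeq gene table named 44749 of 46318 IDs. Col1a1 CPM (count over the file's total) ranked the libraries within each title group. Genes were filtered with filterByExpr over all 24 libraries by title group, scaled by TMM and tested on the 16 libraries with edgeR 4.0.16 in R 4.3.3 (quasi-likelihood, two-sided, title group plus class, Benjamini-Hochberg threshold 0.05). Of 15820 genes that passed the filter, Col1a1 was left out of the test and the adjustment. SE is the log2 fold change over the square root of F. CPM in the text are scaled by file totals, log2 fold changes by TMM. List scores used a prior count of 2. The test was tried on simulated counts with known changes. No pair of libraries agreed within sampling noise (lowest chi-square per degree of freedom 16.4).

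The members, lists and naming rule were chosen with earlier results of these data known. Named were Col1a1 and Col3a1, the called genes of at least 5 CPM with the 10 strongest rises and the 10 strongest falls, 5 further calls per direction with the lowest p, up to 4 called members of each list, and a panel of stromal, epithelial and immune genes. These were 105 tested genes, of which 91 passed. Other list members are given as examples, chosen after their values were seen. Nr0b2 failed the filter. Alternatives were RLE and upper-quartile scaling, TMM without matrix genes, robust dispersion, DESeq2 1.42.0, voom of limma 3.58.1 with quality weights, other filters and thresholds, no title term, each title group alone, 3 or 6 libraries per class and title group, ranking on Col3a1 or on TMM-scaled Col1a1, a continuous term, adipocyte, muscle and T cell scores as terms, and leaving out each library. Depth limits low genes, since a library's counting error is large at a few reads.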

Additional observations from a re-analysis of the deposited data

Results flagged for a closer look

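For the 107 named genes and both classes, 214 checks in all, the highest or lowest of the 8 libraries was set against its nearest neighbour on the log2 scale (pseudocount 0.1 CPM). In 31 checks that gap, as a share of the class's whole range, passed the 95% critical value of Dixon's test. Chance flags about 1 in 20 such checks, and genes of a tissue move together, so the flags are not independent.

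Most flags were KO 12, which lay far below the other 7 poor libraries in matrix and fibroblast genes. Its levels were 85.4 CPM for Bgn, 8.83 for Col14a1, 14.4 for Col5a1, 22.3 for Col6a1, 19.6 for Col6a2, 22.4 for Col6a3, 43.1 for Fstl1, 15 for Nid1 and 2.29 for Lama2. It was also lowest for the cross-linking genes Lox (12.5 CPM) and Loxl1 (8.04), for Podn (0.905), Pdgfra (5.69), Ddr2 (3.62), Tgfb3 (155), Zeb1 (2.82) and Zeb2 (4.42), and for the leukocyte genes Adgre1 (11.2), Ptprc (11) and Cd3e (0.266). The same library had the highest glycolysis and hypoxia score of the poor class, at 1.64.

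KO 11 lay far above the other 7 rich libraries in some leukocyte and vessel genes, in Zeb2 and in the matrix gene Podn. It was at 8.64 CPM for Cd3e, 159 for Ptprc, 53.8 for Zeb2, 48.9 for Lyve1, 17.5 for Tek and 17.9 for Podn. Adgre1 was lowest of the rich class in WT 18 (33.6 CPM), and Col5a2 in WT 14 (116 CPM). Hax1 was highest of the rich class in KO 8 (41.5 CPM). Among poor libraries, Acta2 was lowest in KO 9 (30.0 CPM) and Mmp3 in WT 21 (5.40 CPM). No named gene had its rich libraries all move one way in one title group and the opposite way in the other.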

How the results depend on the processing

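The count of 551 called genes stayed within 1.5 times under RLE scaling (554) and upper-quartile scaling (616), TMM without matrix genes (565), limma voom (607), robust dispersion (541), no filter (502), a filter of 1 CPM in 12 libraries (534), no title term (611), ranking on Col3a1 (793) or on TMM-scaled Col1a1 (551, the same classes) and without KO 11 and KO 12 (393). It moved to 1028 with DESeq2 (879 higher and 149 lower), 358 with 3 libraries and 243 with 6 libraries per class and title group, 2398 with a continuous term, 18 and 21 with the adipocyte term without and with a muscle term, 291 with a T cell term, 191 and 884 at adjusted p thresholds of 0.01 and 0.1, and 0 in libraries labelled KO alone and in those labelled WT alone. Leaving out single libraries gave 343 to 563. Of the 91 called named genes, 42 passed with 6 libraries per class and title group, 10 and 13 with the adipocyte term without and with muscle, 0 in either title group alone, and 68 to 87 without single libraries. Of the 118 called list members, 9 passed with the adipocyte term, 86 with the T cell term, 91 without KO 11 and KO 12, and 0 in either title group alone. Within libraries labelled KO, DESeq2 called 687 genes and voom 175. Within those labelled WT, DESeq2 called 481 and voom 0. The interaction gave 0 calls under each alternative run. The Col1a1 difference between the title groups was 0.35 with TMM scaling, 0.47 for Col3a1 in its place, and 0.21 to 0.47 without single libraries. Apart from the terms' own construction, the causes were not tested.

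Signs changed for some named genes under some of the alternatives. With the adipocyte term, without and with muscle, the log2 fold changes were -0.28 and -0.47 for Cyp2e1, -0.11 and -0.12 for Slc36a2, -0.20 and -0.27 for Pck1, -0.051 and -0.037 for Retn, -0.0040 and -0.019 for Adipoq, -0.033 and -0.038 for Ptprc and -0.95 and -0.98 for Cd3e. Acta1 was at -0.97 with the adipocyte term alone and at -0.33 in libraries labelled WT alone, and Cd3e at -0.096 with the T cell term. Mmp14 was at -0.0040 in libraries labelled WT alone, -0.0088 with 3 and -0.18 with 6 libraries, -0.21 when ranked on Col3a1, -0.12 with the continuous term, and at -0.017, -0.15, -0.031 and -0.015 without KO 6, KO 7, KO 9 and WT 19, with a range from -0.15 to 0.36 over the fits that leave out 1 library. Tgfb1 was at -0.11 in libraries labelled WT alone, -0.0088 with the T cell term and -0.010 without KO 7 (-0.010 to 0.15 without single libraries). Mki67 was at -0.16 with voom, -0.052 in libraries labelled KO alone, -0.12 with 3 libraries, -0.24 when ranked on Col3a1, and -0.029, -0.12 and -0.0086 without KO 8, WT 18 and WT 19 (-0.12 to 0.13 without single libraries). No paired analysis was possible because the numbers of the libraries labelled KO (1 to 12) and WT (13 to 24) do not overlap.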

Other observations

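Several gene groups outside the stroma held no call between the classes. Of 22 proliferation genes 0 passed (0 at an unadjusted p under 0.05), and the median log2 fold change was -0.21. Mki67, a marker of cycling cells, averaged 344 ± 135 CPM in rich and 321 ± 69.4 CPM in poor libraries (SD, n = 8 each; 0.04 ± 0.20, SE), with a value below 0 in several alternatives. Unfolded protein response genes had 0 of 15 called, with 15 values below 0, 7 of them at an unadjusted p under 0.05 (7.98% of all tested genes), and a median of -0.38. Hspa5, the chaperone BiP, averaged 848 CPM in rich and 1079.96 CPM in poor libraries (-0.42 ± 0.19). Cytosolic ribosome genes had a median of -0.25 and oxidative phosphorylation genes one of -0.19, with 0 of 16 called in each, and their highest scores, 1.28 and 0.92, were those of poor KO 12. Interferon-stimulated genes had 0 of 14 called and a median of -0.38, and MHC class II genes 0 of 7 and a median of 0.43, with 6 at an unadjusted p under 0.05, where 10.2% of all tested genes were higher, and 3 of 7 called when libraries were ranked on Col3a1.

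Milk genes were present in every library of the classes and highest in rich KO 7: their score was 4.59 there, against -0.97 to 1.53 in the other 15 libraries, and 0 of 15 genes passed. Of the 530 genes called higher, 412 stood in none of the 37 lists, 80 in matrix or fibroblast lists, 12 in endothelial or lymphatic lists and 12 in the adipocyte list. Across all tested genes, which are not independent, the log2 fold change and the exon length had a Spearman rho of 0.29. The median log2 fold change by autosome ran from -0.12 on chromosome 17 to 0.02 on chromosome 14, with -0.10 on chromosome 11, where Col1a1 lies.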
